A study of Danio rerio with 2 samples.

Results

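The let-7 family was examined in small RNA libraries of whole zebrafish embryos at 48 hpf. The study's methods name wild-type AB and transgenic lines, without assigning one to these libraries. Its members were taken by name, as all let-7 entries with the letters a to g among the 173 miRNAs of the deposited values, and there were 7 of them. The rule uses names alone, although the family was picked with earlier results of these data known. The sequencing compared 1 library of Tbx5 depleted embryos with 1 library of embryos that received a control morpholino, MO-Ct, each from a pool of 50 embryos. Morpholinos are antisense oligomers that block the translation or splicing of a transcript, and Tbx5 is a T-box transcription factor needed for heart and pectoral fin formation. The sample labels name MO-Tbx5a at 1.5 ng per embryo against 1.5 ng of MO-Ct, injected at the 1-cell stage. By the study's own account a morpholino against the paralog, MO-Tbx5b, was injected as well, also at 1.5 ng. The study states that control embryos received an equal amount of MO-Ct, so its doses differ from those of the labels. It also states that the depleted embryos were picked by eye for the heartstring (hts) phenotype. The libraries are called the hts library and the control library below. The hts library holds pooled, selected morphants, and knockdown by a morpholino is transient and can be incomplete.

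let-7 was first found in Caenorhabditis elegans as a heterochronic gene, one that sets the timing of larval development. In vertebrates mature let-7 accumulates as cells differentiate, while the RNA-binding protein Lin28 holds back its maturation in early and undifferentiated cells. All members share the same seed, the stretch near the 5′ end that pairs with target transcripts, and differ from each other by a few bases outside it. Known targets in vertebrates include transcripts of Lin28 itself, of Hmga2 and of Ras genes. Several let-7 loci lie close to loci of miR-99 or miR-100 and of miR-125, the vertebrate counterpart of lin-4, another worm timing miRNA.

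The level of a miRNA is given in rpm, the reads assigned to it per 1000000 reads assigned to the listed miRNAs. The values corresponded to whole reads, 580312 in the hts library and 1150157 in the control library, and the level of each member is given with the reads it stands for. All intervals are exact 95% intervals (Clopper-Pearson) that treat reads as independent and hold counting error alone. Reads are not independent molecules after PCR, so the intervals can be too narrow even for that error. As each condition has 1 library, no difference had a replicate check, and each one compares these libraries and not the conditions. Of 17 tissue markers looked up, 16 were listed above 0 in both libraries, so muscle, nervous system, liver, blood, epidermis and early embryo were all represented. The exception was miR-430j, an early embryonic miRNA listed at 0 in the hts library. In whole embryos, fewer cells of a type and less of a miRNA per cell cannot be told apart. The values are relative, and the median FC (hts rpm over control rpm) over the 107 miRNAs exceeding 200 rpm in both was 0.910, or -0.14 on the log2 scale.

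As a whole the let-7 family stood at nearly the same level in both libraries. The summed level of the 7 members was 6464 rpm in the hts library, from 3751 reads, and 6348 rpm in the control library, from 7301 reads. This was 0.646% (0.626 to 0.667%) and 0.635% (0.620 to 0.649%) of the assigned reads. The FC of the total was 1.02 (95% interval 0.979 to 1.06), so a difference in rpm as deposited was not detectable at this depth. Relative to the median FC of 0.910 the total had a ratio of 1.12 (1.08 to 1.16), so that it then lay above 1. Of those 107 miRNAs, 35 had a higher FC. The 107 include let-7a, let-7c and let-7d, which also enter the median, and let-7a and let-7d are among the 35. let-7a carried much of the total, and without let-7a the FC of the other members together was 0.957 (0.905 to 1.01).

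When miRNAs whose names differ only in letter or locus number were summed, 104 families by name were obtained. The let-7 family ranked 18 in the hts library and 19 in the control library. In the control library it stood between the summed miR-18 entries at 6649 rpm and the summed miR-200 entries at 5165 rpm. In the hts library these sums were 4761 and 4599 rpm, and both were lower there than the sum of let-7. Entries with another number were counted apart. miR-141 and the miR-429 entries, at 3106 and 1285 rpm in the control library, are thus not in the miR-200 sum. The study counts miR-18a in the miR-17 family, which is apart here too. The ranks therefore depend on this naming, and families by seed were not summed. The miRNAs above 200 rpm in both libraries with the FC nearest to that of the let-7 total were miR-181a at 1.02 (0.990 to 1.05), miR-221 at 1.02 (0.893 to 1.17) and miR-1 at 1.02 (1.01 to 1.04). With only 2 libraries such likeness is a single ratio and describes no shared pattern.

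Within the family the members spanned a wide range of levels, and their order was the same in both libraries. let-7a was the most abundant member, with 3333 rpm (1934 reads) in the hts library and 3077 rpm (3539 reads) in the control library. let-7c followed with 1968 rpm (1142 reads) and 1970 rpm (2266 reads). let-7d had 859.9 rpm (499 reads) and 789 rpm (907 reads). These 3 members together made up 95.3% (94.6 to 96.0%) of the family total in the hts library and 91.9% (91.3 to 92.5%) in the control library. The intervals of these shares did not overlap. This grouping was formed with the values known, and no background share was counted for it. Between these libraries, 17.9% of the 162 miRNAs listed above 0 in both had a FC interval above 1, and 45.7% one below 1. That is a measure of single miRNAs in rpm and not of shares in a family, so it does not supply the missing background.

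The other members were far less abundant. let-7e had 159 rpm (92 reads) in the hts library and 228 rpm (262 reads) in the control library. let-7g had 109 rpm (63 reads) and 222 rpm (255 reads). Both were thus just above 200 rpm in the control library and below it in the hts library. let-7b had 36.2 rpm (21 reads) and 43.5 rpm (50 reads), and let-7f was listed at 0 in the hts library and at 19.1 rpm (22 reads) in the control library. In the control library let-7a was 13.5-fold more abundant than let-7e and 70.8-fold more abundant than let-7b. Neighbours in this order had separate intervals, except let-7e and let-7g, whose intervals overlapped in both libraries. The position of let-7f in the hts library rests on its listing at 0.

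**Figure D1:**
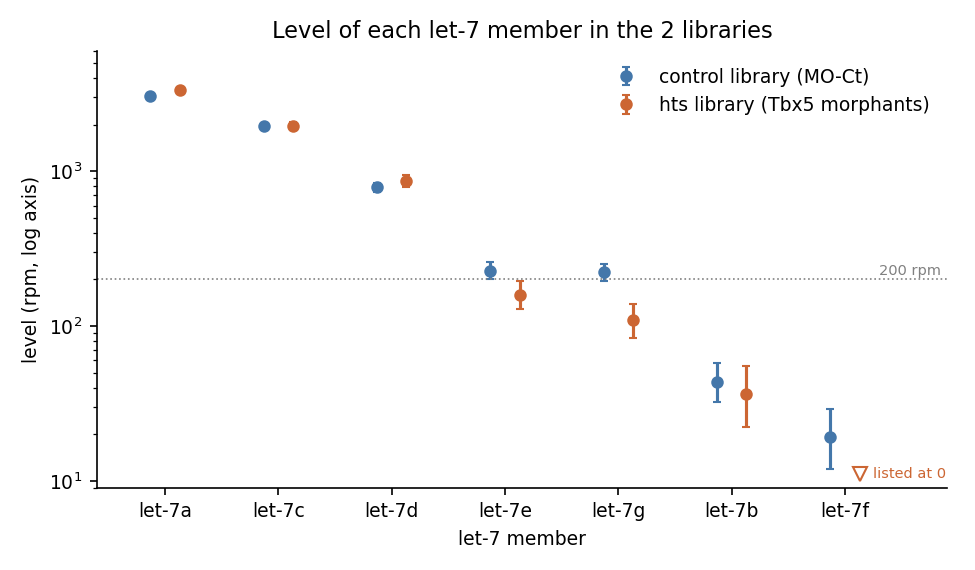
Level of each let-7 member (rpm, log axis) in the control library (blue) and the hts library (orange), with 1 library per condition; bars are exact 95% counting intervals and the open triangle marks let-7f, listed at 0 in the hts library. let-7a, let-7c and let-7d lie between 789 and 3333 rpm in both libraries, while let-7e and let-7g fall from above to below the dotted line at 200 rpm.

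The entries of the deposited values are named by hairpin locus, and the 7 members stand for 16 loci. let-7a joins 6 loci, let-7c, let-7d, let-7e and let-7g join 2 loci each, and let-7b and let-7f have 1 locus each. As listed, let-7a took 51.6% (49.9 to 53.2%) of the family total in the hts library and 48.5% (47.3 to 49.6%) in the control library. let-7c took 30.4% (29.0 to 31.9%) and 31.0% (29.98 to 32.1%), and let-7d took 13.3% (12.2 to 14.4%) and 12.4% (11.7 to 13.2%). For let-7c and let-7d the intervals of the libraries overlapped, and for let-7a they did not. let-7e held 2.45% and 3.59%, and the intervals did not overlap. let-7g held 1.68% (1.29 to 2.14%) and 3.49% (3.08 to 3.94%), also without overlap. Shares of one total do not change separately, and no background share was counted for such non-overlap. let-7b stayed below 1% of the family in both, at 0.560% and 0.685%, and let-7f held 0.301% (0.189 to 0.456%) in the control library.

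Per locus the order at the top of the family was different. Divided by its 6 loci, let-7a had 555 rpm per locus in the hts library and 513 rpm per locus in the control library. let-7c, divided by its 2 loci, had 984 and 985 rpm per locus, and thus led the family in both libraries. let-7d had 429.9 and 394 rpm per locus. let-7e at 79.3 and 114 rpm per locus and let-7g at 54.3 and 111 rpm per locus remained well below, as did let-7b at 36.2 and 43.5 rpm. How the reads of a joined entry were spread over its loci is not known from these values, so a level per locus is an average.

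**Figure D2:**
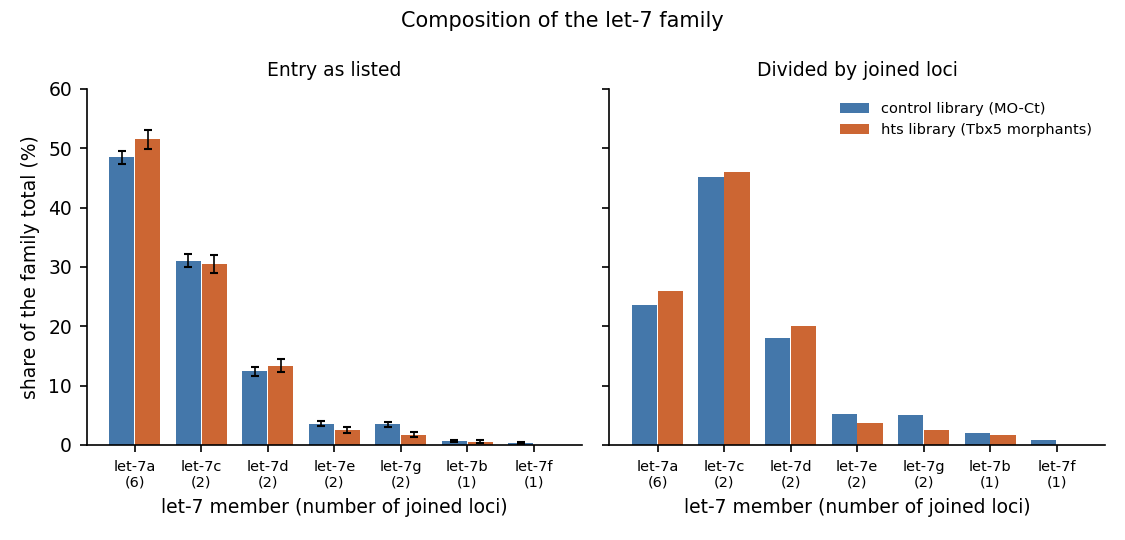
Share of each let-7 member in the family total (%) in the control (blue) and hts (orange) library, left as listed with exact 95% intervals and right after division of the rpm by the number of joined loci, given in parentheses. let-7a leads as listed with 48.5% and 51.6%, whereas let-7c leads per locus with 45.2% and 46.0%.

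The members did not all have the same FC. Over the 6 members listed above 0 in both libraries the median log2 FC was -0.13, against -0.16 over all 162 such miRNAs. This median falls between let-7c at -0.0017 and let-7b at -0.26, and no member lay near it. let-7a had a FC of 1.08 (1.02 to 1.15), the only member whose interval lay above 1 in rpm as deposited. This was 1 of the 6 members, where 17.9% of the 162 miRNAs had an interval above 1. let-7d had a FC of 1.09 (0.976 to 1.22) and let-7c of 0.999 (0.929 to 1.07), and both intervals included 1. Ranked by FC among these 162 miRNAs, let-7d, let-7a and let-7c came at places 37, 38 and 55 from the top. Relative to the median FC, the ratio was 1.198 for let-7d (1.07 to 1.34), 1.19 for let-7a (1.13 to 1.26) and 1.10 for let-7c (1.02 to 1.18). All 3 intervals then lay above 1, as did those of 27.2% of the 162 miRNAs. These rescaled intervals leave out the error of the median itself.

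let-7g and let-7e had fewer rpm in the hts library. let-7g had a FC of 0.490 (0.366 to 0.647), a level 2.04-fold lower than in the control library, and let-7e had a FC of 0.696 (0.543 to 0.886). These were 2 of the 6 members with an interval below 1, where 45.7% of the 162 miRNAs had one, so the members' share was no higher than that of miRNAs at large. let-7b had a FC of 0.833 (0.475 to 1.41), an interval so wide at 21 and 50 reads that neither a fall nor a rise of moderate size was detectable. In order of FC from the top, let-7b held place 97 and let-7g place 152, with let-7e between them. After division by the median FC, let-7g was at 0.538, let-7e at 0.765 and let-7b at 0.915.

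The thresholds applied to these libraries were a change of 1.8-fold or more, up or down, and a level over 200 rpm, here in the control library. Of the 5 members above 200 rpm in the control library, 1 was at least 1.8-fold lower, let-7g, against 6.03% of the 116 miRNAs above this level. The interval of let-7g reached across the 1.8-fold limit of 0.556, and with the minimum of 200 rpm set in the hts library let-7g was left out and 0 members passed. The study places the minimum in the Tbx5 depleted embryos, and with it placed there let-7g is not among the miRNAs that pass. Of the miRNAs the study followed up, miR-219, miR-7a and miR-19a had 853, 396 and 339 rpm in the hts library. miR-7b, miR-130a and miR-190b, also followed up, had 129, 65.5 and 27.6 rpm there, below 200 rpm. In the control library miR-7b had 361 rpm, while miR-130a and miR-190b had 141 and 104 rpm, also below 200 rpm. How the study applied its minimum is thus not known from these values. Without a minimum, 2 of the 7 members were at least 1.8-fold lower, let-7g and let-7f, against 15.6% of the 173 miRNAs. No member was 1.8-fold higher. let-7f passed only because it was listed at 0. The 22 reads of let-7f over both libraries are fewer than the 30 occurrences that the stated filter on sequences asks for, and how this filter was applied is not known from the values. The lowest value listed above 0 in the hts library was 11 reads, and at an equal rpm the 22 control reads of let-7f would correspond to 11.1 reads there. A level equal to that of the control library would thus stand at the lowest value listed, and no FC is given for let-7f. The 11 miRNAs listed at 0 in the hts library had from 6 (miR-135a) to 59 (miR-365) reads in the control library. In the control library the lowest value was 6 reads. Whether a minimum of reads was applied is not known.

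**Figure D3:**
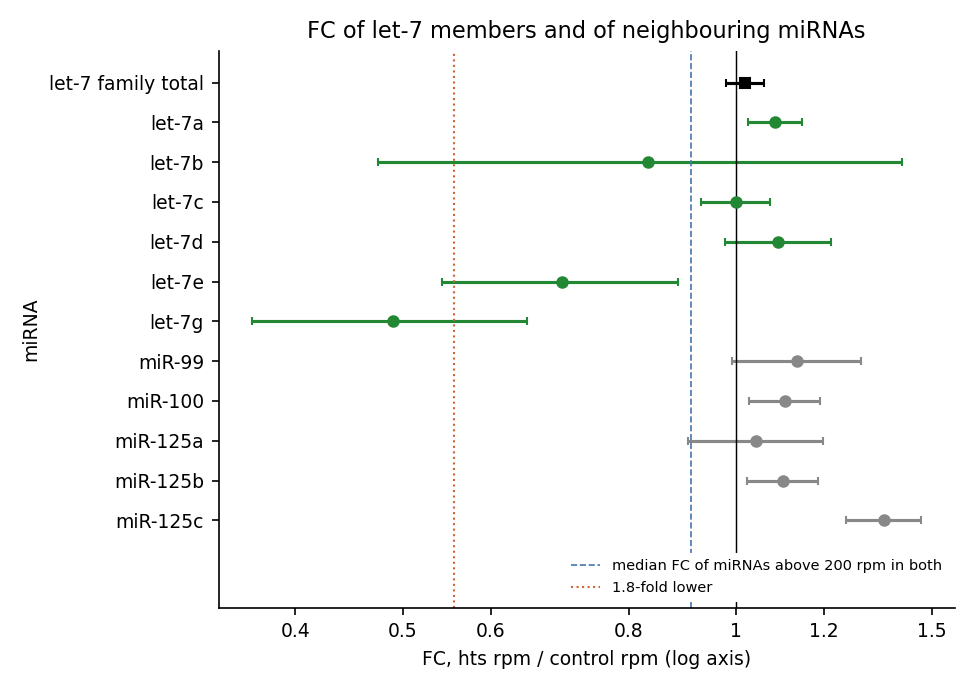
FC (hts rpm divided by control rpm, log axis) with exact 95% counting intervals for the let-7 family total (black), 6 let-7 members (green) and the neighbouring miRNAs miR-99, miR-100 and miR-125 (grey), with the median FC of 0.910 dashed and the 1.8-fold lower limit dotted. let-7g at 0.490 and let-7e at 0.696 lie to the left, whereas let-7a, let-7c and let-7d lie between 0.999 and 1.09.

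Ratios between members within a library are free of the scaling to rpm. The 6 members listed above 0 in both libraries form 15 pairs, and for 6 of them the 95% interval of the change in ratio excluded 1. All 6 set let-7a, let-7c or let-7d against let-7e or let-7g. These pairs share members, so they are not separate results. Pairs of all miRNAs were not counted, so the counts of pairs have no background share. Of the 162 single miRNAs, 17.9% had a FC interval above 1 and 45.7% one below 1, but these depend on the scaling to rpm and are no background for pairs. There were 30.7 reads of let-7a per read of let-7g in the hts library and 13.9 in the control library, a 2.21-fold difference (1.66 to 2.98). For let-7a and let-7e the corresponding ratios were 21.0 and 13.5, a 1.56-fold difference (1.21 to 2.01). let-7c to let-7g changed 2.04-fold (1.53 to 2.76) and let-7d to let-7g 2.23-fold (1.64 to 3.05). Among let-7a, let-7c and let-7d, 0 of 3 pairs had an interval that excluded 1. let-7a to let-7d was nearly constant, at 3.88 and 3.90 reads per read, a ratio of 0.993 (0.877 to 1.13). let-7e and let-7g had 1.46 and 1.03 reads per read, and the interval of that change, 0.973 to 2.08, included 1.

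Members of this family are so alike that their reads can be divided between names by an annotation that allows 2 mismatches. Which name a read belongs to is thus uncertain within the family. The family total does not depend on how reads were divided among the listed names. A let-7h locus, seen as a neighbour of let-7g-2, is annotated but has no entry among the values. Whether its reads were counted under listed names is not known. Annotated let-7 loci were not listed in full, so others may lack an entry too, and the total covers the listed members only. The part of such assignment in the values of let-7b, let-7e, let-7f and let-7g was not tested. Summed, these 4 members had 303 rpm (176 reads) and 512 rpm (589 reads), a FC of 0.592 (0.498 to 0.702). This sum was formed with the values known and describes these libraries. Among the tissue markers the summed FC was 0.527 for blood (miR-144 and miR-451), 0.802 for the early embryonic miR-430 family, 0.819 for liver (miR-122), 0.910 for nervous system (miR-9 and miR-124), 1.07 for muscle (miR-1, miR-133 and miR-206) and 1.18 for epidermis (miR-203 and miR-205). Members within these sums differed. For blood, miR-451 had a FC of 0.464 (44 and 188 reads) and miR-144 one of 1.15 (0.493 to 2.54) at 11 and 19 reads. For nervous system, miR-9 had 0.910 and miR-124 had 0.683. Muscle members ran from 0.640 for miR-133b to 1.08 for miR-206, and epidermis members from 1.03 for miR-203a to 1.23 for miR-205. Within the miR-430 family, miR-430a had 0.691 and miR-430c had 0.923. The part of tissue composition in the let-7 values was not tested.

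**Figure D4:**
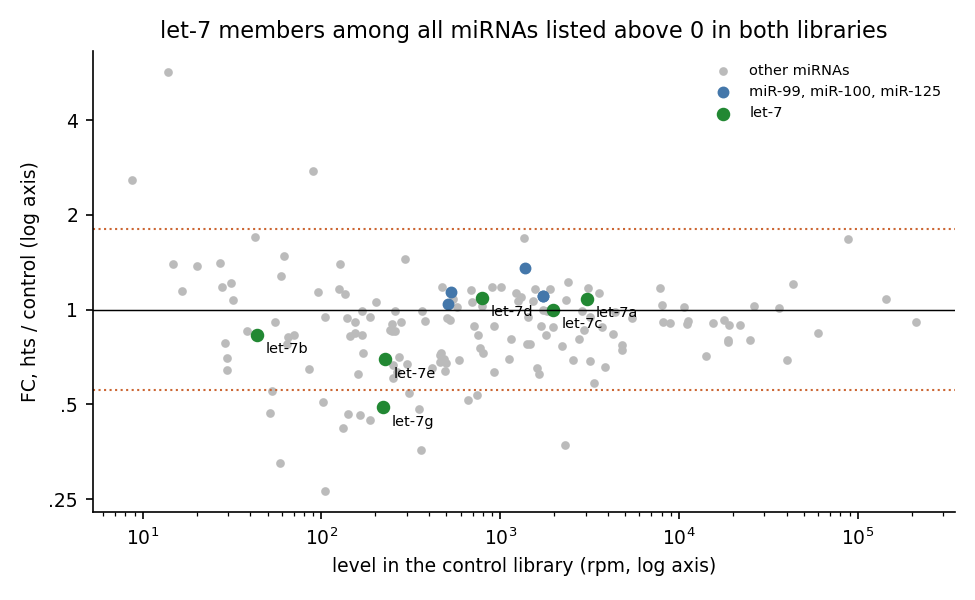
FC (log axis) against the level in the control library (rpm, log axis) for the 162 miRNAs listed above 0 in both libraries, with let-7 members in green, miR-99, miR-100 and miR-125 in blue and dotted lines at 1.8-fold in either direction. let-7g, with 222 rpm and a FC of 0.490, is the only let-7 member outside the dotted lines.

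The surroundings of the loci were looked up in the RefSeq annotation of the GRCz12tu assembly, in which 15 of the 16 loci were found. The exception was let-7e-2. For 6 loci a miRNA gene of miR-99, miR-100 or miR-125 lay within 50 kb. let-7a-2 lies near miR-100-1 and miR-125b-1, and let-7a-4 near miR-100-2 and miR-125b-2. let-7c-1 lies near miR-99-1 and miR-125c, and let-7c-2 near miR-99-2 and miR-125b-3. let-7d-1 and let-7d-2 lie near miR-125a-1 and miR-125a-2. All 6 loci belong to let-7a, let-7c and let-7d, the abundant members, although only 2 of the 6 let-7a loci are among them.

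The loci found for the rare members let-7b, let-7e, let-7f and let-7g had no such neighbour within 50 kb. The same held for let-7a-1, let-7a-3, let-7a-5 and let-7a-6, so this does not set rare members apart from let-7a. The surroundings of let-7e-2 are not known. let-7a-6 and let-7g-1 had 0 other miRNA genes within 50 kb. let-7f lies beside let-7a-1, let-7b beside let-7a-3 and let-7e-1 beside let-7a-5. The let-7b and let-7a-3 loci lie within pparaa, a gene of a lipid-sensing nuclear receptor. let-7g-2 lies within huwe1, which codes for a ubiquitin ligase, beside the let-7h locus, and let-7g-1 lies within an uncharacterised lncRNA gene. let-7b, let-7e-1 and let-7f each sit beside a let-7a locus, and their entries reached at most 228 rpm in either library. That highest value is of let-7e, which joins 2 loci. The average for a let-7a locus was 513 rpm in the control library and 555 rpm in the hts library. The reads of let-7a-1, let-7a-3 and let-7a-5 alone are not known, so adjacent loci cannot be compared.

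The neighbouring miRNAs of the abundant members were all listed in both libraries. miR-100 had 1920 rpm (1114 reads) in the hts library and 1737 rpm (1998 reads) in the control library, a FC of 1.11 (1.03 to 1.19). miR-125b, with the same 1114 reads in the hts library and 2006 reads in the control library, had a FC of 1.10 (1.02 to 1.18). miR-99 had a FC of 1.13 (0.991 to 1.30) and miR-125a of 1.04 (0.905 to 1.198), and the intervals of both included 1. These 4 overlapped with the interval of let-7a, and the intervals of miR-125a and let-7d overlapped as well. miR-125c had the highest FC of the 5, with 1873 rpm (1087 reads) and 1379 rpm (1586 reads), a FC of 1.36 (1.26 to 1.47), whereas let-7c, with a locus near that of miR-125c, had 0.999. The intervals of miR-125c and let-7c did not overlap.

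Summed, the 5 entries of miR-99, miR-100 and miR-125 had 6845 and 5900.1 rpm, a FC of 1.16 (1.12 to 1.21). This interval did not overlap with that of the let-7 total, nor with that of let-7a, let-7c and let-7d together at 1.06 (1.01 to 1.10), another sum formed with the values known. Without miR-125c the neighbours had a FC of 1.10 (1.05 to 1.15), whose interval overlapped with that of the 3 let-7 members. This sum too was formed with the values known, and leaving out the entry of highest FC lowers it by construction. For the overlap of sums no background share was counted either. In the control library the let-7 family had more rpm than these neighbours, and in the hts library fewer.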

How the data were processed

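Small RNA libraries of 1 pool of Tbx5 morphants and 1 pool of MO-Ct injected embryos, here the hts and control library, were prepared from 1 μg of total RNA with 13 PCR cycles. The authors trimmed reads in CLC workbench, kept those of 18 to 33 nt and, as stated, sequences seen at least 30 times, and annotated them to zebrafish miRBase hairpins with up to 2 mismatches and up to 2 extra bases at each end. The authors deposited rpm per hairpin entry, and no genome build is given in the sources used here. The arm of the hairpin was not analysed here.

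Library totals were recovered as the smallest number between 50000 and 3000000 at which all 173 rpm values were whole reads within rounding and added up to it. The lowest recovered values above 0 were 11 reads (hts) and 6 reads (control), below the stated filter of 30 occurrences, so how that filter was applied is unknown. FC was the ratio of rpm without a pseudocount. Its 95% interval came from the Clopper-Pearson interval of the share of reads from the hts library, and the change in ratio between members from the exact conditional odds ratio. The 200 rpm minimum equals 116 reads (hts) and 230 reads (control). Groups followed the labels, and with 1 library each no test between conditions was made. Named were all let-7 entries with letters a to g, miR-99, miR-100 and miR-125, the 3 miRNAs above 200 rpm in both libraries nearest in FC to the family total, and the families next to let-7 in rank. Members, lists and rules were chosen with earlier results of these data known. Other pseudocounts, scalings, thresholds and a division by loci were tried.

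On simulated data (20 pairs of libraries of 173 miRNAs) the totals were recovered in 20 pairs and 95.3% of 3456 intervals held the true ratio. The simulated reads were independent draws, without PCR copies, filter or variation between libraries. This share therefore checks the calculation and is not the coverage in the real libraries. Matplotlib 3.10.9, SciPy 1.17.1, pandas 2.3.3 and NumPy 2.4.6 were run under Python 3.11.15.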

Additional observations from a re-analysis of the deposited data

How the results depend on the processing

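No paired analysis was possible because there is only 1 library for each condition, and no replicate could be left out. Of 36 alternative values of the FC of the family total and of 6 members, 25 lay inside the counting interval and 11 outside it, and none turned a FC whose interval excluded 1. After median scaling the intervals of the total, let-7c and let-7d, which had included 1, lay above it. The FC of the total rose to 1.12 after median scaling, 1.15 after trimmed-mean scaling and 1.12 with the 3 most abundant miRNAs left out. Without let-7a it was 0.957 (0.905 to 1.01) in rpm as deposited and 1.05 (0.994 to 1.11) after median scaling. Both of these intervals included 1. Under the same 3 scalings let-7a had 1.19, 1.22 and 1.19, and let-7c had 1.10, 1.12 and 1.10. let-7d had 1.23 by the trimmed mean. let-7b, let-7e and let-7g stayed below 1 and within their intervals throughout.

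The number of members at least 1.8-fold lower was 1. It became 0 with the minimum of 200 rpm in the hts library, and 2 with no minimum rpm, as let-7f was then counted. It remained 1, let-7g, under the other thresholds, scalings and pseudocount tried.

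Division by the number of joined loci moved 13 of 14 shares by its construction. In the hts library it gave 26.0% for let-7a, 1.69% for let-7b, 46.0% for let-7c, 20.1% for let-7d, 3.71% for let-7e and 2.54% for let-7g. In the control library it gave 23.5% for let-7a, 1.99% for let-7b, 45.2% for let-7c, 18.1% for let-7d, 5.23% for let-7e, 0.878% for let-7f and 5.09% for let-7g. No let-7 entry outside the letters a to g was among the values analysed, so taking all letters changed no share. Summing names within 1 base of each other and families by seed were not run, since mature sequences were not used here. Depth limits let-7b and let-7f most, with 50 and 22 reads in the deeper library.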
